A study of Mus musculus with 132 samples.

Results

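Distal accessible sites that were open both in Flk1+ mesoderm and in the CD41+ hematopoietic progenitor cells (HPCs) derived from it were described here together with the genes closest to them. A site was an ATAC-seq peak of wild-type mesoderm that shared 1 bp or more with a peak of wild-type HPCs, did not touch a CTCF peak of 416B cells, and had its midpoint more than 5 kb from every gene start. Of 76766 mesoderm peaks, 19814 overlapped a peak of HPCs, 14797 of these had no CTCF peak, and 6285 of these were distal. ATAC-seq marks DNA that a transposase can cut, and the peaks were deposited as positions with no height, so that openness is a yes or no here. The mesoderm list came from 4 libraries and the HPC list from 2, each merged before peaks were called, and the HPC list was shorter, with 29037 peaks.

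Mouse embryonic stem cells (mESCs) of the E14 line were differentiated in embryoid bodies, sorted as Flk1+ mesoderm on day 4 and as Ter119- CD41+ CD45- HPCs on day 7. Expression came from RNA-seq of the poly(A)-minus fraction, in which unspliced RNA still being made is retained, of 2 undifferentiated wild-type libraries (day 0), 3 wild-type mesoderm libraries and 4 wild-type HPC libraries. The wild-type mesoderm libraries are named by clone (B9.3, C6.1, C8.1), and HPCs had a further B9.3 library named B9.3-2. Clones with a CRISPR deletion of the CTCF site beside the distal promoter of Runx1 (P1-CTCF-KO) or the proximal one (P2-CTCF-KO) gave 3 mesoderm libraries each, and 3 and 5 HPC libraries. The undifferentiated libraries are labelled technical replicates of E14, and ribosomal RNA depletion is named in the Methods for undifferentiated mESCs but not for mesoderm or HPCs, so that a difference from mESCs cannot be told apart from one of library preparation. The labels name E14-TG2a as the ATAC-seq line, whereas the Methods name a derivative that carries a Venus reporter at Runx1 and a transgene of the Runx1 +23 enhancer. The CTCF list came from 416B, an immortalized line of myeloid progenitors, and CTCF binding in mesoderm or in the sorted HPCs was not analysed here.

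Distal open sites outside CTCF-bound regions include enhancers, short stretches of DNA that bind transcription factors and raise transcription of a promoter that may lie far away. In the making of blood from mesoderm, ETS factors such as Fli1 and Erg, GATA factors, the E-box factors Tal1 and Lyl1, and Runx1 are known to act through such sites, often with several factors on a single element. Mesoderm that bears Flk1, the VEGF receptor encoded by Kdr, gives rise to endothelium and blood, and HPCs leave the endothelium through the endothelial-to-hematopoietic transition.

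The sequences of 7 sites are shown. They were picked from sites nearest to regulators of blood or endothelium whose levels are given further on, and sites of other such genes are left out. All are given on the plus strand of mm9, 5′ to 3′, and capitals mark matches on either strand to AGATAA (the GATA motif), TGTGGT (RUNX) or AGGAAG (ETS), overlapping matches included. The Runx1 site lies in an intron and the Cbfa2t3 site upstream of its gene, in an annotated intron. The Ikzf2 site is intergenic, the Meis1 and Erg sites are intronic, the Kdr site overlaps an exon of Kdr, and the Sox7 site lies in an intron of the neighbouring gene Pinx1.
Runx1, chr16:92715871-92716073: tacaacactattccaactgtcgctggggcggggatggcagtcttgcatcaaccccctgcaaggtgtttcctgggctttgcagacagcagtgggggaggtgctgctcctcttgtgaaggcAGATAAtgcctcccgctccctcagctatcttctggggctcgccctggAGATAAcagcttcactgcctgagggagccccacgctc
Cbfa2t3, chr8:125235835-125236052: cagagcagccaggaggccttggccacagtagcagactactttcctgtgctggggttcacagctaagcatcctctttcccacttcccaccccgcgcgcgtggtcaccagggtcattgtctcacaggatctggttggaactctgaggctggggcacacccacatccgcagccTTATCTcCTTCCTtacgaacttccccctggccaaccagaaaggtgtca
Ikzf2, chr1:69542680-69542933: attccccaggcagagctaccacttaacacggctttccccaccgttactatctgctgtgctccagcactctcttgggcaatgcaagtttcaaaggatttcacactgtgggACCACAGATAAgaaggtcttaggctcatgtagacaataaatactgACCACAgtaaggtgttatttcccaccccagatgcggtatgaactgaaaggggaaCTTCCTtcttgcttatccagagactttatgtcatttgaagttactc
Meis1, chr11:18825015-18825219: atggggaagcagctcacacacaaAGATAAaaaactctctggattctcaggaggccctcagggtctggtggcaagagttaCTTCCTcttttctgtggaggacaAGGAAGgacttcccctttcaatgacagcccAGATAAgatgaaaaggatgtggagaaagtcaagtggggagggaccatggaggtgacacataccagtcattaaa
Erg, chr16:95661475-95661762: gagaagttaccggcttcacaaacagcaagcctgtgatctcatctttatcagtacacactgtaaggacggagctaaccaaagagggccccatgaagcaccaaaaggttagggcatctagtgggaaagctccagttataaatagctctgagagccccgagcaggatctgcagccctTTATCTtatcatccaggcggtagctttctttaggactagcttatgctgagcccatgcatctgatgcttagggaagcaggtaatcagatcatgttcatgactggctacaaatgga
Kdr, chr5:76358324-76358591: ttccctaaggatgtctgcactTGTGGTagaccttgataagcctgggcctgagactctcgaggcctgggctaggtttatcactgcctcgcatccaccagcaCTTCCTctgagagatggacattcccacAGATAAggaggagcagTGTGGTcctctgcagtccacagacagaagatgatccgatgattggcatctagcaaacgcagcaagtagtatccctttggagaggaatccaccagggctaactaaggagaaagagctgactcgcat
Sox7, chr14:64527443-64527697: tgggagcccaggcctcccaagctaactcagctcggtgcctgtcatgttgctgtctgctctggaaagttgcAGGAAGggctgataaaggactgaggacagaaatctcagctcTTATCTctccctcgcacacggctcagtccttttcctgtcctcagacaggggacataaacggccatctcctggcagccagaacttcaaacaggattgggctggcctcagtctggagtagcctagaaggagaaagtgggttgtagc

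The Ikzf2 and Kdr sites held all 3 kinds of motif, with 1 GATA, 2 RUNX and 1 ETS match each, and the first RUNX match at the Ikzf2 site overlapped the GATA match. The Meis1 site held 2 GATA and 2 ETS matches, the Cbfa2t3 and Sox7 sites held 1 of each, and the Runx1 site held 2 GATA matches alone. The Erg site held the E-box of the CTG type at a fixed distance from a GATA match, the composite that Tal1 and GATA factors are known to bind together. A match says that these letters are present and was not taken as a bound site.

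The sites had a median width of 154 bp in the mesoderm list (quartiles 100 and 230, range 64 to 781). Distal peaks open in a single stage were narrower, with medians of 99 bp in mesoderm only (n = 36422) and 97 bp in HPCs only (n = 6825), and peaks near a gene start that were open in both stages were wider (224 bp, n = 10090). In HPCs the peak at a site had a median width of 121 bp. At 4063 sites the mesoderm peak was the wider one and at 2165 the HPC peak, and in 5969 of the 6285 pairs the shared stretch covered most of the shorter peak (50% or more). A wider peak also meets the overlap of the rule more easily, so that the width of the class is not independent of how it was chosen. Widths depend on the depth of each merged library, which was not given with the peaks, and these differences between classes were not tested. Within 5% of the 5 kb limit, 42 sites lay just beyond it and were kept, and 29 otherwise similar peaks lay just inside it and were left out.

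The median distance to the nearest gene start was 47334 bp, and 4428 sites (70.5%) lay within 100 kb of it. Introns held 2383 sites (37.9%), exons 660 (10.5%) and intergenic DNA 3242 (51.6%) by the GENCODE vM1 annotation. The site lay inside the span of its nearest gene in 1867 cases (29.7%) and upstream of it in 2669 (42.5%). The gene starts of the rule are 1 per gene, so that alternative promoters and small RNA genes count as distal: 676 sites (10.8%) were within 500 bp of a GENCODE transcript start, against 3.61% of mesoderm-only, 2.74% of HPC-only and 3.87% of CTCF-bound distal sites. A site at an internal transcript start of Runx1, in what the paper names its proximal promoter, was one of them. Leaving out these sites left 5609, and the values that this moved are given beside the motifs.

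Another site lay within 10 kb of 1292 sites (20.6%), and 563 clusters of neighbours formed in this way. The largest held 11 sites, on the X chromosome near Vmn2r-ps159, a pseudogene of the vomeronasal receptors. On chromosome Y, 66 of 155 mesoderm peaks (42.6%) were such sites, against 5.71% to 10.8% on the other chromosomes. Gm3376, in a multicopy region of chromosome Y, was the nearest gene of 37 sites, Vmn2r-ps159 of 25 and Gm3636 of 22. Reads from near-identical copies cannot be placed with certainty, so that such clusters are uncertain. Without chromosome Y, 6219 sites remained and the motif shares moved by less than 0.3 percentage points for each motif given here.

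Windows of 200 bp around the midpoints were searched on both strands for short motifs. The ETS motif was in 45.96% of 6281 windows and the GATA motif in 22.02%, against 22.1% and 12.2% in windows 2 kb to the side of the same sites. The RUNX motif was in 20.2% of windows, closer to its share of 15.4% beside the sites. Over all mesoderm peaks the shares were 30.6% (ETS), 16.2% (GATA) and 14.4% (RUNX), and at all gene starts 25.4%, 5.27% and 9.80%. All class shares are descriptions, and no test was run on them.

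Mesoderm-only sites held the GATA motif about as often (24.0%) but ETS (33.0%) and RUNX (15.6%) less often, and HPC-only sites held ETS (61.8%) and RUNX (35.4%) more often and GATA (15%) less often. The composite of E-box and GATA was in 206 windows, 3.28%, against 1.96% of mesoderm-only, 1.73% of HPC-only and 0.574% of the windows to the side. GATA and ETS were both present in 10.8% of windows (7.83% in mesoderm-only and 7.63% in HPC-only sites), and GATA, RUNX and ETS all in 2.52% (1.17% and 2.32%). None of these 3 motifs was found in 35.5%, against 42.9% of mesoderm-only and 19.0% of HPC-only sites.

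The TEAD motif (GGAATG), read by the partners of the Hippo pathway effector Yap1, was in 13.6% of windows, near its share to the side of the sites (11.2%) and below that of mesoderm-only sites (21.7%). The AP-1 motif (TGANTCA) was in 12.1%, against 8.73% of mesoderm-only, 12.9% of HPC-only and 6.03% of the windows to the side. The E-boxes CAGCTG and CATCTG were in 19.0% and 19.1%, the MEIS motif (TGACAG) in 19.0% and the KLF motif (CCACCC) in 19.2%. The SP motif (GGGCGG), a GC-rich promoter element, was in 14.6%, against 7.76% of mesoderm-only sites, 4.43% of HPC-only sites and 56.9% of peaks near gene starts. Once sites within 500 bp of a transcript start were left out, SP fell to 11.3% while GATA stood at 24.1%, ETS at 47.3%, RUNX at 21.3% and the composite at 3.64%. The core of the CTCF motif (AGGNGGC) was in 18.1%, against 37.7% of CTCF-bound distal sites and 16.7% of mesoderm-only sites.

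**Figure D1:**
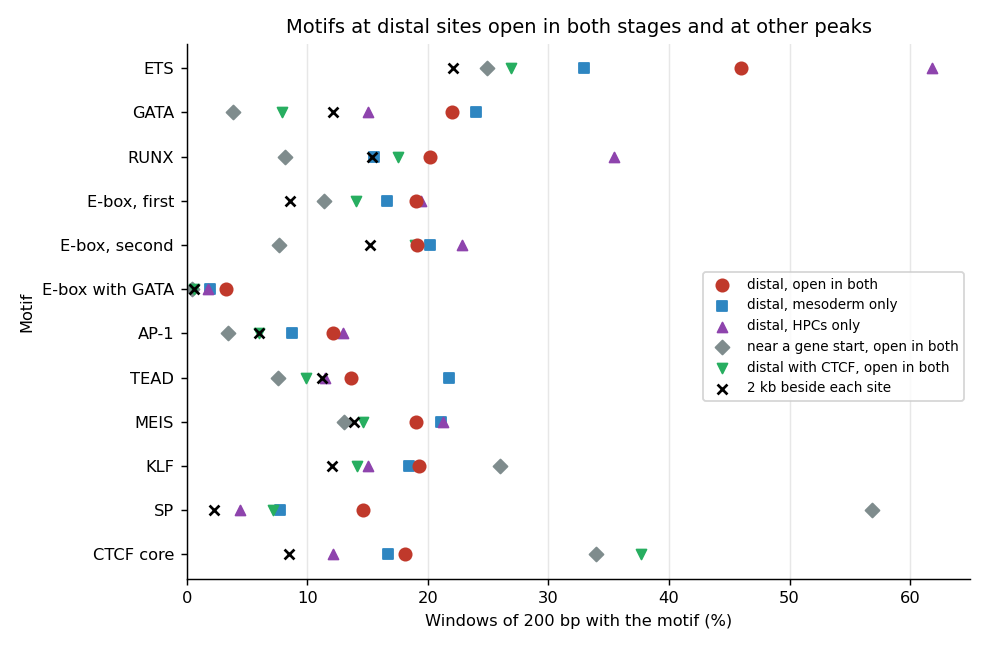
Share of 200 bp windows (x axis, %) that hold each motif (y axis) in the distal sites open in both stages (red), the other classes of peak and the windows 2 kb beside each site. E-box, first is CAGCTG and second is CATCTG. The ETS share of 45.96% lies between those of mesoderm-only (33.0%) and HPC-only sites (61.8%), whereas GATA at 22.02% lies near the mesoderm-only share (24.0%).

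ETS matches reached 4.02 per kb next to the midpoint, against 1.47 per kb at 975 bp to its left on the plus strand and 1.535 per kb as far to its right. GATA matches were at 1.54 per kb next to the midpoint, against 0.618 per kb at the left edge and 0.783 at the right. RUNX matches were at 1.39 per kb, against 0.847 and 0.793. From the narrowest (64 to 100 bp) to the widest (231 to 781 bp) of 4 equal groups, GATA was inside 7.24% to 36.5% of the peaks themselves. RUNX was inside 11.3% to 25.4% and ETS inside 27.8% to 54.1%. A longer sequence offers more places for a match, so a rise with width is given by the counting itself. Rates per kb were not compared between the groups. The median GC content was 51.5%, against 43.5% in the windows to the side and 63.0% for peaks near gene starts.

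**Figure D2:**
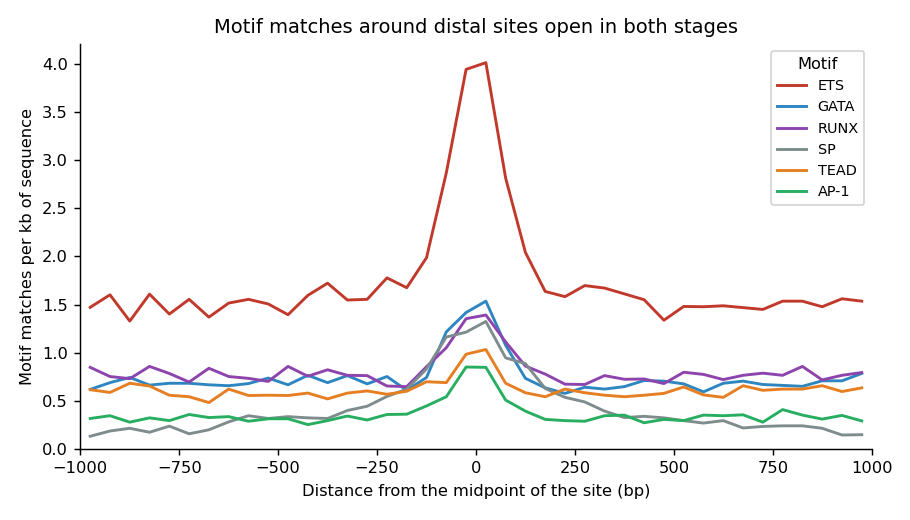
Motif matches per kb of sequence (y axis) in steps along the distance from the midpoint of the sites (x axis, bp), pooled over all sites on both strands. ETS rises from 1.47 per kb at the left edge to 4.02 per kb at the centre, and GATA and RUNX reach 1.54 and 1.39 per kb there.

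Among the RNA libraries, 7805102 to 24406998 counts per library were deposited, but ribosomal and multicopy rows took 87.8% to 91.0% of them in mesoderm and HPCs and 68.1% and 76.3% in undifferentiated mESCs. Levels are given as CPM, counts relative to the TMM-scaled library size, and are comparable for a gene within a fit only. Itga2b, which encodes CD41, was at 24.98 to 55.1 CPM in HPCs and 0.655 to 1.61 CPM in mesoderm, and Pou5f1 at no more than 0.404 CPM in mesoderm and at 0 in HPCs. The mesoderm library B9.3 stood apart from its group: the summed level of the endothelial markers Cdh5, Pecam1, Tek and Esam was 83.7 CPM in it, against 2.29 in C6.1 and 10.5 in C8.1. The 4 HPC libraries had sums of 13.0 to 23.3 CPM and all 4 markers were detected in each. In bulk libraries such as these, a different share of cells of a type and a different level per cell cannot be told apart, and whether the endothelial share of B9.3 took part in the results was not tested. Where leaving it out changed a call or a direction for a gene described here, the value without it is given. Where a called gene then failed the filter on low counts, this is said instead.

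The 6285 sites had 4018 nearest genes, of which 2757 were nearest to a single site, 1261 to 2 or more and 101 to 5 or more. Past the filter on low counts, 2354 of them (58.6%) were tested, against 51.3% of all genes in the table. Genes were called changed at an adjusted p under 0.05 in edgeR's quasi-likelihood test with an absolute log2 fold change over 1. Between mesoderm and HPCs, 384 nearest genes (16.3%) were higher and 403 (17.1%) lower in HPCs, against 10.8% and 12.5% of all 12899 genes tested. Their median log2 fold change was -0.04, and that of all genes tested -0.01. Between undifferentiated mESCs and mesoderm, 436 nearest genes (18.5%) were higher and 304 (12.9%) lower in mesoderm, against 10.7% and 13.7% of all genes, with medians of 0.08 and -0.18.

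Depth and gene size differed too, and their part was not tested: the median count over the 7 mesoderm and HPC libraries was 176 for the nearest genes and 102 for all genes tested, and their median span was 57.2 against 25.3 kb. Of the 787 nearest genes called between mesoderm and HPCs, 728 had libraries that did not overlap between the stages, and of the 3007 called among all genes, 2789 did. Called or not, libraries did not overlap for 968 of all 2354 nearest genes tested, and for 4246 of the 12899 genes. With DESeq2, 437 nearest genes were higher and 220 lower in mesoderm than in mESCs, and the split over all genes turned from 1386 higher and 1761 lower to 1453 and 1216.

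In mesoderm against mESCs, of 1582 tested genes with a single site, 15.4% were higher and 14.2% lower, whereas of 772 with 2 or more, 24.9% were higher and 10.2% lower, of 303 with 3 or more, 27.4% and 11.2%, and of 58 with 5 or more, 25.9% and 10.3%. The median count also rose with the number of sites, from 153 for 1 site to 245.5 for 2 or more, and the span from 49.95 to 74.1 kb, and their part in these shares was not tested. In HPCs against mesoderm, 18.1% of the genes with 2 or more sites were higher and 20.1% lower.

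When the closest site lay 5 to 20 kb from the gene start, 19.2% of 907 genes were higher and 13.5% lower in HPCs than in mesoderm. At 20 to 100 kb, 15.6% of 1059 genes were higher and 18.9% lower, and beyond 100 kb, 11.6% of 388 genes were higher and 20.9% lower. Of 1108 genes with a site inside their own span, 20.0% were higher and 19.1% lower, against 13.0% and 15.3% of the 1246 without one. Their median span was 99.3 kb with 261.5 counts, against 30.2 kb with 120.5 counts without one. From the closest to the farthest distance group the median span was 39.25, 66.5 and 111.3 kb. The part of depth and span in these shares was not tested.

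Most nearest genes also had distal sites that were open in a single stage. The 347 tested genes with no other distal site outside CTCF peaks were 13.8% higher and 8.65% lower in HPCs. With mesoderm-only sites beside them, 896 genes were 13.95% higher and 19.3% lower, with HPC-only sites, 85 genes were 25.9% higher and 8.24% lower, and with both kinds, 1026 genes were 18.4% higher and 18.8% lower. Genes whose distal sites were mesoderm-only had 9.85% higher and 17.2% lower (n = 3027), and genes with HPC-only sites alone 17.9% and 8.04% (n = 336). With both of these kinds but no site open in both stages, 15.9% of genes were higher and 16.6% lower (n = 976). These shares are near the 16.3% and 17.1% of all genes nearest to a site open in both. All genes nearest to an HPC-only site had 17.6% and 16.05% (n = 2423). Genes with no distal site outside CTCF peaks had 8.01% and 8.04% (n = 6206). In mesoderm against mESCs, the 347 genes with no other distal site were 9.51% higher and 17.0% lower, with a median log2 fold change of -0.27. With mesoderm-only sites beside them the shares were 15.6% and 13.7%, with HPC-only sites 14.1% and 8.24%, and with both kinds 24.5% and 11.2%. Genes with mesoderm-only and HPC-only sites but none open in both had 16.5% and 13.5%. The differences between these sets were not tested.

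For sets of genes by motif, matches were counted in the whole peak and not in the 200 bp window, so that wider peaks entered more often. The 639 tested genes nearest to a site with the GATA motif were 23.6% higher and 17.4% lower in HPCs, and 25.7% higher and 10.02% lower in mesoderm than in mESCs. Of the 110 tested genes nearest to a site with the composite of E-box and GATA, 31 (28.2%) were higher and 19 (17.3%) lower in HPCs. In mesoderm against mESCs, 31 of them were higher and 8 lower. Genes with the RUNX motif were 19.2% higher and 19.8% lower in HPCs, those with ETS 17.3% and 19.4%, those with TEAD 15.1% and 20.6%, and those with SP 13.2% and 19.6%.

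**Figure D3:**
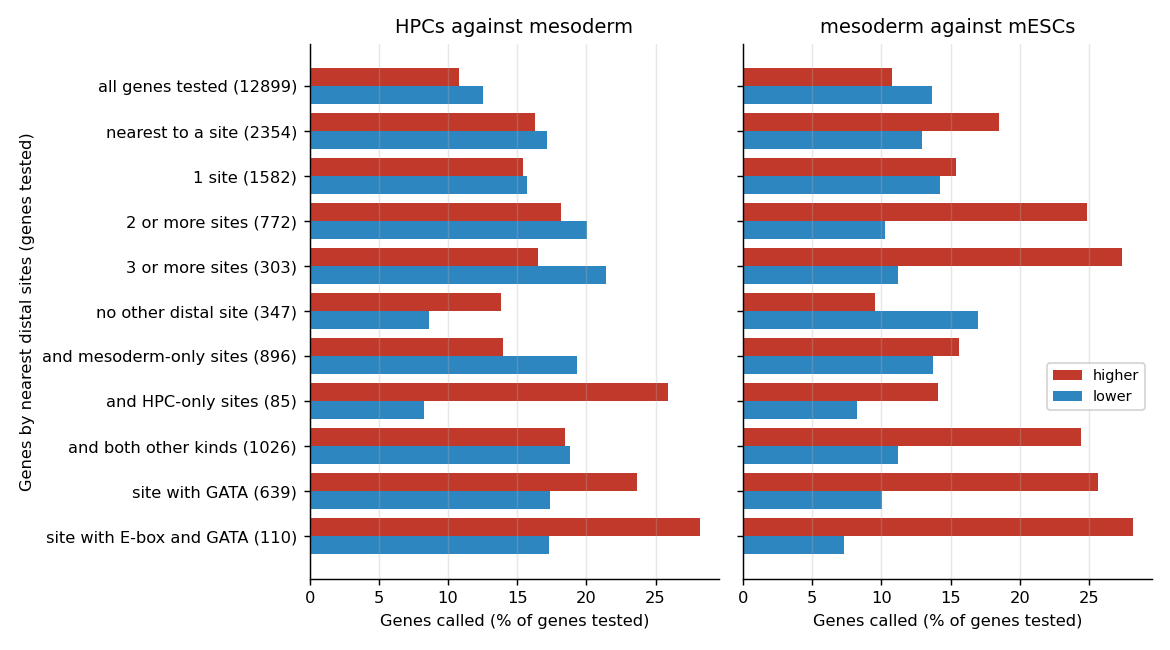
Share of the genes tested (x axis, %) that were called higher (red) or lower (blue) in HPCs than in mesoderm (left) and in mesoderm than in undifferentiated mESCs (right), for sets of nearest genes (y axis, number tested in brackets). The set with the composite of E-box and GATA reaches 28.2% higher on both sides, against 10.8% and 10.7% of all genes.

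Of 28 transcription factors of blood, 12 were nearest to 25 sites in all, 11 of these were tested, and 8 rose and 0 fell from mesoderm to HPCs, with a median log2 fold change of 1.76. Over the whole list, 15 of 25 tested genes rose and 2 fell, with a median of 1.94. From mESCs to mesoderm, 10 of the 11 rose.

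Runx1, which the transition to blood requires, had 3 sites on chromosome 16. The first, chr16:92697560-92697724, lay 69 bp from an internal transcript start of the gene. It falls in the stretch that the paper assigns to the proximal promoter of Runx1, so that it is distal by the rule alone. The second, chr16:92715871-92716073, is the intronic site shown above. The third, chr16:92884074-92884489, lay upstream of the gene, 57962 bp from its annotated start, with 2 GATA and 2 ETS matches. Runx1 was at 1.21 and 0.811 CPM in mESCs, at 5.41 (B9.3), 17.0 (C6.1) and 20.8 (C8.1) in mesoderm and at 125.4, 101.2, 116.8 and 181.9 in HPCs of B9.3, B9.3-2, C6.1 and C8.1. The 3 stages did not overlap, and B9.3 was the lowest of mesoderm. Its log2 fold change was 3.19 ± 0.43 (SE, adjusted p = 0.000256) from mesoderm to HPCs and 3.81 ± 0.54 (adjusted p = 0.000577) from mESCs to mesoderm.

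Cbfa2t3, a corepressor that works with Tal1 and Runx1 complexes, had 2 sites on chromosome 8. It was at 0.133 and 0.173 CPM in mESCs, at 4.94, 4.58 and 4.52 in mesoderm and at 32.0, 30.5, 23.9 and 33.0 in HPCs, in the order of libraries given for Runx1. No library of a stage reached those of the next, with log2 fold changes of 4.93 ± 0.30 (adjusted p = 1.37e-05) and 2.67 ± 0.21 (adjusted p = 1.52e-05). Besides the upstream site shown above it had a site in its own span, chr8:125209506-125209733, which held the composite of E-box and GATA.

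Ikzf2, a zinc finger factor of the Ikaros family, had 4 sites, 3 of them on the 3′ side of its start and the farthest 189728 bp away. Its levels were 1.81 and 1.34 CPM in mESCs, 5.96, 4.58 and 7.75 in mesoderm and 16.7, 14.8, 18.3 and 22.3 in HPCs, with a log2 fold change of 1.55 ± 0.24 (adjusted p = 0.000737) between the later stages. Ikzf1, the founding member of the family, had 2 sites, 1 of them with 2 matches to the composite, and went from 0.627, 2.78 and 4.44 CPM in mesoderm to 10.07, 15.9, 15.2 and 20.5 in HPCs (log2 fold change 2.57 ± 0.48, adjusted p = 0.00223). For both genes every HPC library lay above every mesoderm library.

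Meis1, a homeobox factor of blood stem cells, had 3 sites. It was at 15.8 CPM in B9.3 but at 1.15 and 1.94 in the other mesoderm libraries, and at 78.6, 28.8, 38.1 and 87.9 in HPCs, with a log2 fold change of 3.17 ± 0.75 (adjusted p = 0.0083). Zfpm1, the GATA1 partner also known as FOG1, had 3 sites, all in its introns, and rose from 8.07, 12.9 and 17.5 CPM to 42.5, 37.6, 40.9 and 40.1 (log2 fold change 1.65 ± 0.25, adjusted p = 0.000598). The mesoderm libraries of Meis1 differed among themselves far more than those of Zfpm1, and for both genes HPCs lay above mesoderm in every library.

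Fli1, an ETS factor of blood and endothelium, had 1 site and was at 42.7 CPM in B9.3, 4.26 in C6.1 and 17.5 in C8.1, and at 76.7, 44.0, 55.8 and 117.4 in HPCs. The lowest HPC library was close to B9.3, and the call (log2 fold change 1.76 ± 0.58, adjusted p = 0.0408) was lost in 7 of 13 alternatives, among them those without mesoderm or HPC library C6.1 or C8.1, with adjusted p from 0.000332 to 0.131. Without the mesoderm library B9.3 the log2 fold change was 2.71. Lyl1, an E-box factor related to Tal1, rose from 0.164 to 1.02 CPM in mesoderm to 1.46 to 4.51 CPM in HPCs (2.37 ± 0.52 on the log2 scale, adjusted p = 0.00548). Etv6, an ETS repressor with 2 sites, was not called (0.84, adjusted p = 0.109) but was without mesoderm B9.3 (1.29, adjusted p = 0.0183) or HPC B9.3-2 (1.03, adjusted p = 0.0443). Erg, with 2 sites, was not called (-2.39, adjusted p = 0.0599), was called with no filter, with the clone as a block (adjusted p = 0.00854) and without mesoderm C6.1 (-2.87, adjusted p = 0.0146), and was at -0.73 (adjusted p = 0.523) without mesoderm B9.3. Bcl11a (0.55, adjusted p = 0.459) was not called, and Gfi1 was at 0 in all HPC libraries.

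**Figure D4:**
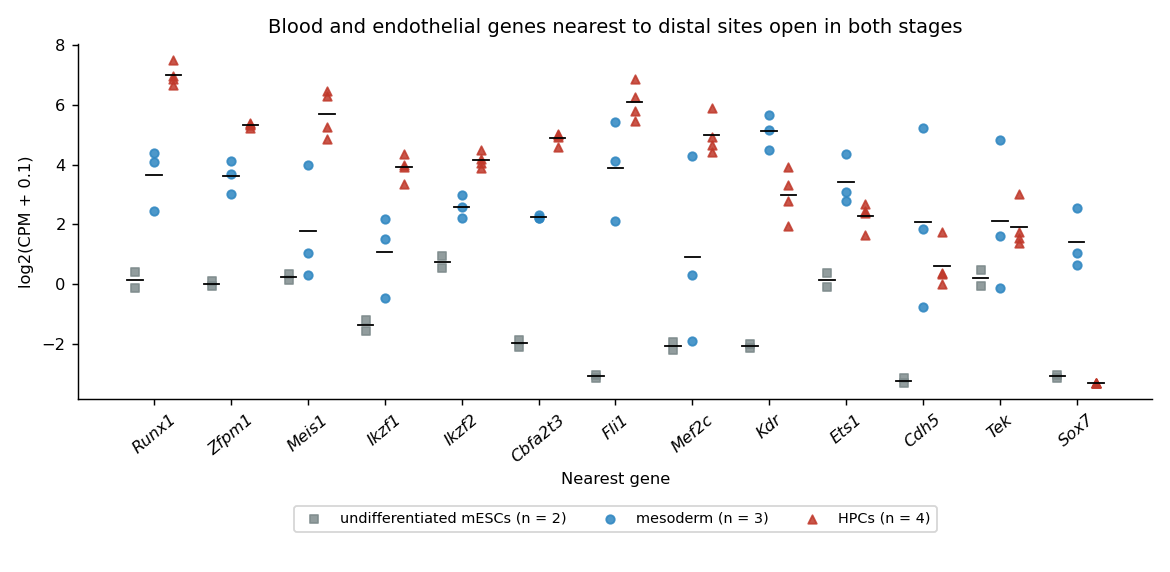
Levels of 13 nearest genes of the blood and endothelial lists (x axis) as log2(CPM + 0.1) (y axis) in each library of undifferentiated mESCs (squares), mesoderm (circles) and HPCs (triangles), with the mean of the plotted values as a bar. HPCs lie above mesoderm for the 7 genes from Runx1 to Fli1, and mesoderm library B9.3 is the highest circle of Meis1, Fli1, Mef2c, Kdr, Ets1, Cdh5, Tek and Sox7.

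Of 26 endothelial genes, 12 were nearest to 31 sites, and of the 9 tested 0 rose and 4 fell from mesoderm to HPCs, against 0 and 9 of the 20 tested over the whole list. From mESCs to mesoderm, 8 of the 9 rose. Kdr, with 2 sites, was at 0.125 and 0.146 CPM in mESCs, 51.1, 36.2 and 22.7 in mesoderm and 15.04, 6.72, 3.72 and 9.98 in HPCs. Every mesoderm library lay above every HPC library, and the log2 fold change was -2.04 ± 0.39 (adjusted p = 0.00265). As mesoderm was sorted for Flk1, the protein of Kdr, its level there is no independent result.

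Sox7, an endothelial SOX factor with 2 sites, was at 5.80, 1.47 and 1.94 CPM in mesoderm and had no count in the 4 HPC libraries, at least 35.3-fold lower against a floor of 3 counts over the group. It failed the filter on low counts without mesoderm B9.3 or C8.1, and in both fits of the 7 mesoderm and HPC libraries alone. Several values leaned on mesoderm library B9.3. Cdh5, the cadherin of endothelial junctions, with 3 sites, was at 37.1 CPM in B9.3, 0.491 in C6.1 and 3.47 in C8.1, and at 1.16, 3.27, 1.20 and 0.897 in HPCs. Its stages overlapped, with a log2 fold change of -3.18 ± 0.98 (adjusted p = 0.031). Without mesoderm B9.3 it was -0.54 (adjusted p = 0.584), and the call was also lost without the HPC library of C6.1, of C8.1 or the first of B9.3.

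Ets1, with 4 sites, was at 20.3, 8.35 and 6.86 CPM in mesoderm and 5.32, 6.38, 3.06 and 5.16 in HPCs, a log2 fold change of -1.27 ± 0.38 (adjusted p = 0.0261). Without mesoderm B9.3 it was -0.61 (adjusted p = 0.162), and the call was also lost without HPC library C6.1 or C8.1. Tek, the angiopoietin receptor, with 3 sites, was at 28.2, 0.819 and 2.99 CPM in mesoderm and 8.1, 3.27, 2.52 and 2.80 in HPCs and was not called (-1.38, adjusted p = 0.242). Without mesoderm B9.3 the direction turned (1.004, adjusted p = 0.214), and with no filter the fall was called (-1.405, adjusted p = 0.0293). Mef2c, a factor of muscle, endothelium and blood, had the most sites of the list, 7, of which 5 were in its introns. It was at 19.6 CPM in B9.3 and 0.164 and 1.13 in the other mesoderm libraries, and at 30.2, 21.6, 25.5 and 59.99 in HPCs. All HPC libraries were higher, yet it was not called (log2 fold change 2.24 ± 0.89, adjusted p = 0.0838), whereas it was with no filter (2.22, adjusted p = 0.000774), in a fit of 23 libraries (2.26, adjusted p = 0.0418) and without B9.3 (5.48, adjusted p = 5.82e-05). Pecam1, a junction protein with 1 site, was at 0.75 (adjusted p = 0.404) and was called without mesoderm B9.3 (2.21, adjusted p = 0.00445).

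Of 25 genes of the BMP and TGF-beta pathways, which instruct mesoderm, 9 were nearest to 14 sites, and 7 of the 9 fell and 0 rose from mesoderm to HPCs, against 14 and 1 of the 24 tested over the list. The ligand Bmp2, with 3 sites, fell by 2.25 on the log2 scale. It failed the filter on low counts without mesoderm B9.3 or C8.1, and in both fits of the 7 mesoderm and HPC libraries alone. Among receptors, Acvr1 fell by 1.93, Bmpr1a by 1.69 and Acvr2a by 1.28. The signal transducer Smad1 was at 6.90, 15.2 and 10.9 CPM in mesoderm and at 1.85, 1.21, 0.266 and 0.448 in HPCs, without overlap (-3.53 ± 0.47, adjusted p = 0.000238). The inhibitor Smad7 fell by 2.19 and the target Id1 by 3.88, and Smad3 (-0.90) and Ski (-0.57) were not called. Id1 also failed the filter in both fits of 7 libraries. In the fit of 23 libraries Acvr2a lost its call (adjusted p = 0.0551), and Smad3 passed both limits without mesoderm C6.1 (-1.07, adjusted p = 0.0163) or HPC C8.1 (-1.11, adjusted p = 0.0106).

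In the YAP and TEAD list, 5 of 13 genes were nearest to 10 sites, and 3 of these 5 fell and 0 rose, against 7 and 0 of 13 over the list. Yap1 was at 21.2, 26.2 and 25.8 CPM in mesoderm and at 3.93, 0.862, 0.930 and 2.13 in HPCs, which did not overlap (-3.58 ± 0.38, adjusted p = 6.04e-05). Its target Ccn1, with 3 sites, fell by 2.12 (adjusted p = 0.0016, and 0.0737 in the fit of 23 libraries). Ccn1 failed the filter on low counts in both fits of the 7 mesoderm and HPC libraries alone. Tead4 was called at -1.96 (adjusted p = 0.0342) and lost the call in 6 of 13 alternatives, among them those without any 1 of the mesoderm libraries or HPC library B9.3-2 or C8.1. Vgll4, a TEAD cofactor with 4 sites, was at -0.37 (adjusted p = 0.436) and at 0.0390 (adjusted p = 0.973) without mesoderm C8.1.

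The immediate early genes were nearest to 12 sites, 6 of 13 genes, and 0 of the 6 were called. Jun, with 5 sites, was at 12.5, 3.27 and 1.86 CPM in mesoderm and at 3.24, 3.10, 5.05 and 5.72 in HPCs, which overlapped (-0.48 ± 0.52, adjusted p = 0.547, and 0.81, adjusted p = 0.129, without mesoderm B9.3), and Fos, with 2 sites, was at -1.39 (adjusted p = 0.127, and 0.0235 with no filter). The primitive streak list had none of its 18 genes nearest to a site, although 8 of its 9 tested genes fell from mesoderm to HPCs. In the cardiac list 3 of 15 genes had 3 sites each. Of these, Tbx20 was at 21.9, 29.8 and 33.4 CPM in mesoderm and at 19.2 in HPC library B9.3 but 0.862, 0.531 and 0.561 in the others (-2.38 ± 0.90, adjusted p = 0.0693), and without that HPC library it was -5.46 (adjusted p = 1.26e-06).

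Effector genes of blood were less covered, with 6 of 24 nearest to 10 sites, and 3 of the 5 tested rose, against 18 of 20 over the list. Vav1, a signalling protein of blood cells, rose by 5.63 on the log2 scale (adjusted p = 0.000431) and the embryonic globin Hbb-y was 328.8-fold higher, with a counting interval of 58.6 to 13030 from a single mesoderm count.

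Among pluripotency genes, 3 of 17 were nearest to 5 sites, and 1 of these, Klf4, fell from mesoderm to HPCs (-2.75 ± 0.78, adjusted p = 0.0208), a call lost without mesoderm library B9.3 (adjusted p = 0.0917). Klf4 failed the filter on low counts in both fits of the 7 mesoderm and HPC libraries alone. In the endoderm and neural list, 3 of 14 genes were nearest to 4 sites, and of the 2 tested Sox11 fell (-4.64, adjusted p = 0.000348).

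The 15 tested genes with most sites were mixed. Marcks, a substrate of protein kinase C, had 9 sites on chromosome 10, of which 8 were intergenic, and was at 25.3, 15.6 and 12.03 CPM in mesoderm and 6.60, 4.14, 1.59 and 2.58 in HPCs. Mesoderm was higher in every library (-2.24 ± 0.40, adjusted p = 0.00154). The adhesion receptor gene Adgrl2 (8 sites) fell by 1.81, Klf12, a zinc finger repressor (6 sites), by 2.35 and Btbd3 (6 sites) fell by 1.6.

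Depdc1b (7 sites) rose from 1.96, 3.27 and 4.84 CPM to 16.9, 13.8, 15.3 and 20.6 (2.31 ± 0.30, adjusted p = 0.000198), and Dhrs3, an enzyme of retinoid metabolism (6 sites), by 3.94 ± 0.72 (adjusted p = 0.00192). Tex14 rose by 2.87 ± 0.58 (adjusted p = 0.00339), but all 8 of its sites were within 500 bp of an annotated U1 or U3 small RNA gene inside its span. Utrn (8 sites, 0.59), Atf7ip (7, 0.69), Atp2b1 (7, -0.39), Nav3 (7, -0.67) and Wdr5 (7, 0.03, with either sign over the alternatives) were not called. Gm14295 and Gm2004, with 10 sites each, stayed under 1 CPM in all libraries and lie among near-identical copies on chromosome 2. Thus 4 of these 15 genes fell, 3 rose and 8, Mef2c among them, were not called.

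Among genes with 2 or more sites and libraries that did not overlap, those with the smallest adjusted p were the following. Prkca, the alpha isoform of protein kinase C, was at 2.90, 5.40 and 8.07 CPM in mesoderm and at 298.9, 158.9, 268.4 and 394.9 in HPCs (5.68 ± 0.44, adjusted p = 1.52e-05). Epb41, a protein of the red cell membrane skeleton, rose from 16.9, 12.1 and 16.8 to 109.2, 103.6, 139.0 and 158.3 CPM (3.06 ± 0.24). Traf5 rose by 5.24 and Ston2 by 4.89.

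In the other direction, Amot, a YAP-binding scaffold protein with 5 sites on the X chromosome, went from 41.6, 62.7 and 66.4 CPM to 8.56, 7.24, 7.84 and 4.93 (-2.99 ± 0.25, adjusted p = 1.88e-05). Lef1, an effector of Wnt signalling with 3 sites, had 2 counts over all HPC libraries against 601 in mesoderm, a ratio of 297 with a counting interval of 81.9 to 2458. Prtg fell by 4.67, Sall3 by 4.02 and the ligand Efnb2 by 2.97.

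Genotypes were compared within each stage. In mesoderm of P2-CTCF-KO cells, edgeR's test called 3 of 8778 genes, 0.0342%, and all 3 were nearest to a site (1741 nearest genes tested). This was not particular to these sites. All 3 were also nearest to mesoderm-only sites (4219 genes tested), to HPC-only sites (1807) and to peaks near gene starts open in both stages (5410). Of the 3, 2 were nearest to CTCF-bound distal sites open in both stages (1015). Cbfa2t3 was at 2.62, 2.46 and 2.38 CPM in the wild-type clones in the order B9.3, C6.1, C8.1, at 2.12, 1.32 and 2.01 in P1-CTCF-KO clones E7.1, E7.2 and E9.1, and at 0.253, 0.340 and 0.484 in P2-CTCF-KO clones D10.1, D2.1 and E9.1. The P2-CTCF-KO libraries lay below all others, with a log2 fold change of -2.78 ± 0.31 against wild type (adjusted p = 0.0224).

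Ikzf2 was at 3.16, 2.46 and 4.08 CPM in wild type, 2.70, 1.79 and 2.20 in P1-CTCF-KO and 0.710, 0.612 and 0.376 in P2-CTCF-KO mesoderm (-2.52 ± 0.31, adjusted p = 0.0264). Prkar2b, a regulatory subunit of protein kinase A with 3 sites upstream, was at 3.87, 2.20 and 4.08 CPM, 3.20, 2.82 and 3.39, and 0.557, 0.544 and 0.968 in the same order (-2.30 ± 0.31, adjusted p = 0.0371). All 3 genes also rose from wild-type mesoderm to HPCs, Prkar2b from 7.29, 4.09 and 7.75 to 101.6, 66.4, 88.5 and 140.7 CPM in the wild-type fit (3.94 ± 0.34, adjusted p = 2.18e-05).

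Each call was lost when wild-type clone C8.1 or any of the 3 P2-CTCF-KO libraries was left out (0 genes called), with adjusted p up to 0.140 for Cbfa2t3, 0.174 for Ikzf2 and 0.242 for Prkar2b. Their log2 fold changes stayed within -3.07 to -2.56, -2.74 to -2.29 and -2.63 to -2.16 over all alternatives. Without B9.3, 5 nearest genes were called among 7 of 9150 genes, without C6.1, 61 among 127 of 9288, and with DESeq2, 82 (4.71%) among 164 of 8778 (1.87%). At an unadjusted p under 0.05, 424 of the 1741 nearest genes and 1408 of all 8778 passed. The endothelial marker sum was lower in P2-CTCF-KO, whereas P1-CTCF-KO lay within the wild-type range. It was 44.4, 1.23 and 5.53 CPM in wild-type, 9.92, 2.499 and 26.4 in P1-CTCF-KO and 0.304, 0.408 and 0.376 in P2-CTCF-KO mesoderm. Over the whole list of 26 endothelial genes the sums were 187.8, 36.78 and 42.2, then 74.3, 38.1 and 145.6, and 33.0, 29.5 and 36.35 CPM. There the highest P2-CTCF-KO sum came close to the lowest wild-type one. The summed blood markers (Itga2b, Gfi1b, Runx1 and Kit) were 10.9 to 16.8, 11.7 to 15.4 and 2.53 to 6.29 CPM, the mesoderm markers (Kdr, Pdgfra, Hand1 and Mixl1) 22.1 to 36.1, 31.4 to 37.4 and 39.2 to 57.4 CPM, and the pluripotent markers (Pou5f1, Nanog, Sox2 and Zfp42) 0.125 to 0.553, 0.415 to 1.32 and 0.592 to 2.74 CPM. P2-CTCF-KO did not overlap wild type in any of these 4 marker sums, and their part in the 3 calls was not tested.

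Runx1 itself was at 2.87, 9.15 and 11.0 CPM in wild-type, 6.68, 8.06 and 2.58 in P1-CTCF-KO and 1.47, 5.51 and 4.89 in P2-CTCF-KO mesoderm, which overlapped (-0.96 ± 0.58 for P2-CTCF-KO, adjusted p = 0.447). In P1-CTCF-KO mesoderm and in HPCs of both genotypes, edgeR called 0 nearest genes and 0 genes in all, and so did DESeq2. Unadjusted p under 0.05 was reached by 43 of 1741 nearest genes and 168 of all 8778 in P1-CTCF-KO mesoderm. In HPCs it was reached by 36 of 1550 nearest genes and 145 of all 7422 for P2-CTCF-KO, and by 40 and 260 for P1-CTCF-KO. In P2-CTCF-KO HPCs the log2 fold changes of Cbfa2t3, Ikzf2 and Prkar2b were -0.15 ± 0.19, 0.02 ± 0.21 and -0.28 ± 0.37. The difference between the stages was not tested.

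**Figure D5:**
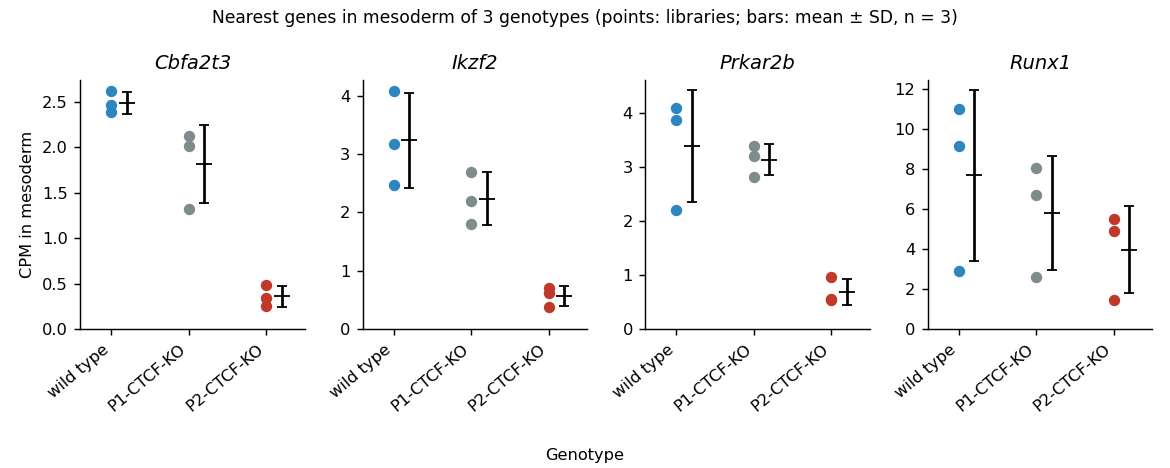
CPM (y axis) of 4 nearest genes in mesoderm libraries by genotype (x axis, wild type and both deletions), with points for libraries and bars for the mean ± SD (n = 3). The P2-CTCF-KO libraries of Cbfa2t3, Ikzf2 and Prkar2b lie below all other libraries, with a highest value of 0.968 CPM, whereas those of Runx1 overlap with wild type.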

How the data were processed

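Peak positions were used as deposited: the authors mapped ATAC-seq reads to mm9, merged the libraries of each stage, kept inserts shorter than a nucleosome and called peaks with MACS2, and they called CTCF peaks of 416B cells against an input. The deposited counts were made by the authors with STAR on mm9, duplicate removal with picard and featureCounts over exons and introns. The strand setting and annotation of that step are not given in the sources used here, so reads of overlapping or antisense genes may be shared. All columns of the count table were used (0 left out). Of 25146 gene rows, 25011 list 1 locus, and 50 of these span over 2.5 Mb, so 24961 gave a gene start.

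Conditions came from the sample labels. The members and gene lists were chosen with earlier results of these data known. Levels are CPM, and genes were tested with edgeR 4.0.16 in R 4.3.3 (TMM, filterByExpr with a minimum count of 10, quasi-likelihood test, Benjamini-Hochberg adjustment over all genes tested) in fits of 9 wild-type, 9 mesoderm or 12 HPC libraries. Alternatives used DESeq2 1.42.0, other size factors, no filter, each library left out, other overlaps, distances and windows, and, chosen after seeing the data, transcript starts and chromosome Y. The edgeR code was tested on simulated data. Peaks and motifs were handled in Python 3.11.15 with pandas 2.3.3 and NumPy 2.4.6, with sequences from the NCBIM37 (mm9) genome and gene positions from GENCODE vM1. Counting intervals cover 95% and counting error only.

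Named genes were the 15 tested genes nearest to most sites, the 5 with the smallest adjusted p in each direction among genes with 2 or more sites and libraries that do not overlap, list members with most sites, Runx1, and genes called between genotypes, and 2 list members are not reported here. Printed sequences were picked from sites of at most 300 bases beside blood or endothelial regulators with most kinds of motif, and not every such site is shown. Where nothing says that libraries came from separate cultures, p-values measure the spread between libraries. Every pair of libraries within a group differed by more than sampling noise (chi-square per gene from 2.24 to 32.2). Deviations of a clone from its group mean in mesoderm and in HPCs hardly correlated (r = 0.0217 for B9.3, 0.0994 for C6.1, -0.0361 for C8.1), and clones were paired in an alternative fit alone.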

Additional observations from a re-analysis of the deposited data

Results flagged for a closer look

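For 9 nearest genes a single HPC library lay far from the other 3 wild-type HPC libraries by Dixon's criterion, and 74 genes were examined. With normally spread values chance alone meets it in about 1 of 20 groups, a rate that need not hold for low counts. Where the other 3 libraries are at 0, any count meets it, as for Gm14295 and Lef1. In library B9.3, Tbx20 was at 19.2 CPM against 0.531 to 0.862, Tek at 8.1 against 2.52 to 3.28, and Sox11 at 2.20 against 0 to 0.345. In library B9.3-2 of the same clone, Cdh5 was at 3.28 CPM against 0.897 to 1.20, Sox17 at 0.690 against 0 to 0.116, and Gm14295 at 0.172 against 0. In library C8.1, Sall3 was at 1.01 CPM against 0.345 to 0.399 and Gm2004 at 0.449 against 0.116 to 0.172. In library C6.1, Lef1 was at 0.266 CPM and the other libraries at 0. The values under 1 CPM rest on a few counts each.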

How the results depend on the processing

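With each of the 7 mesoderm and HPC libraries left out in turn, 336 to 405 nearest genes were higher and 337 to 468 lower in HPCs, against 1160 to 1375 and 1264 to 1801 of all genes. With the clone as a replicate block, 289 were higher and 266 lower of 1568 tested (901 and 916 of all 7343), against 294 and 270 in the same 7 libraries without the block. Both fits of 7 libraries tested fewer genes than the fit of 9 wild-type libraries. The shares of nearest genes called higher and lower were 18.4% and 17.0% with the block and 18.75% and 17.2% without it. In the fit of 9 they were 16.3% and 17.1%. What lowered the numbers of genes called was not tested. In P2-CTCF-KO mesoderm, 197 nearest genes (6.51%) were called with no filter on low counts, against 431 of all 17333 (2.49%), 82 (4.71%) with DESeq2, against 164 of 8778 (1.87%), and 0 to 61 with a library left out, against 0 to 127, for a cause that was not tested. For P1-CTCF-KO mesoderm and for HPCs of both genotypes the count was 0 under every alternative run.

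The number of distal sites open in both stages was 2646 when only peaks wider than the median of their list were used, and 4965 to 7323 under the other definitions. In 100 bp windows the shares were 13.5% (GATA), 11.6% (RUNX), 30.5% (ETS) and 1.93% (E-box with GATA). Among sites more than 500 bp from a transcript start they were 24.1% (GATA), 21.3% (RUNX) and 47.3% (ETS). Of the values of named genes under the alternatives, 896 kept their direction and side of the threshold, 36 lost the call, 23 gained it and 25, of 12 genes, changed sign. None of these 12 genes was called as reported, and 1 was called with the other sign, Cd34, at -0.39 between mesoderm and HPCs and at 3.72 without mesoderm library B9.3 (adjusted p = 0.0162 from edgeR). With a library left out, the log2 fold change was between -0.96 and 3.72 for Cd34, -1.10 and 0.17 for Egr1, -0.58 and 0.57 for Flt1, -0.87 and 0.81 for Fosb, -0.86 and 0.13 for Gm2004, -0.54 and 0.13 for Ier2, -0.92 and 0.81 for Jun, -1.42 and 0.23 for Kit, -0.44 and 2.26 for Lcp1, -1.94 and 1.004 for Tek, -0.64 and 0.0390 for Vgll4, and -0.0655 and 0.215 for Wdr5. In the fit of 7 libraries Lcp1 was at -0.0644 and Wdr5 at -0.13, and Wdr5 was at -0.16 with the clone as a block, -0.0305 with RLE size factors and -0.0202 with DESeq2. Peaks carry no height or depth, so a site absent from a list may lie below its threshold.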
